A study of Mus musculus with 9 samples.

Results

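The transcriptome of untreated bone marrow-derived dendritic cells (BMDCs) was described from the libraries named CTR_1, CTR_2 and CTR_3 in the table of gene counts, which make up the whole CTR group and 3 of the 9 libraries of the series. The other 6 libraries came from BMDCs given exosomes from normal cells (NE) or from tumor cells (TDE), and no treatment contrast was made. Cells of wildtype C57BL/6 mice had been differentiated from femur bone marrow with 20 ng/ml of the growth factor GM-CSF, for 6 days by the labels and 7 days by the study's methods, which give an age of 8 to 10 weeks. CTR cells received no exosomes, and total RNA was sequenced on an Illumina instrument. The study's methods name oligo(dT) and random primers, with amplification at the 3′ end across the transcriptome. How this bears on levels per length was not tested. A culture of this kind starts from all cells of the marrow, the methods call the cells purified without naming a marker, and no label says whether the 3 libraries came from separate mice or cultures. The spread between them may therefore be technical.

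GM-CSF drives marrow progenitors and monocytes into cells that share features of dendritic cells and of macrophages, beside granulocytes that survive or grow in the same cytokine. Dendritic cells take up material through lectin, scavenger and Fc receptors, sense microbes through Toll-like receptors, and cut proteins into peptides in acid endosomes. The peptides are shown to CD4+ T cells on MHC class II, whose chains are guarded by the invariant chain Cd74, and to CD8+ T cells on MHC class I with B2m. Levels of different genes are given below in TPM, a per-length scale made of reads per kilobase of the length listed for the gene, scaled to the same total in each library. Values of 1 gene in different libraries were compared in CPM, which is reads relative to the library total, scaled by TMM factors. The choice of scale matters for CTR_1: relative to scaled CPM, TPM placed every gene of CTR_1 lower by the same amount, -0.9995 against CTR_2 and -1.14 against CTR_3 on the log2 scale. TPM was therefore used to order genes within a library, and statements that a gene was higher or lower in a library rest on CPM unless TPM is named. Values in a row are those of CTR_1, CTR_2 and CTR_3 in this order unless a sentence says otherwise, and all errors are SD with n = 3. In RNA from a mixed culture, fewer cells of a type and less RNA per cell cannot be told apart.

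CTR_1 stood apart from the rest of the series, which bears on every value below. Across the 13178 genes with at least 1 CPM in at least 2 of the 3 libraries, the Pearson correlation of log2 CPM was 0.862 between CTR_1 and CTR_2, 0.816 between CTR_1 and CTR_3 and 0.985 between CTR_2 and CTR_3. Among all 9 libraries, which held 17469782 to 21092943 reads, CTR_1 correlated with the other 8 at 0.794 to 0.878, and the 28 pairs without it lay between 0.939 and 0.993. Genes are not independent, so these are descriptions. The 3 libraries held 21092850, 20953690 and 18474193 reads. An observed count of 0 allows a true mean of up to about 3 reads, which stood for 0.142, 0.143 and 0.162 CPM. These limits cover counting error only.

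The ratio of CTR_1 to the other libraries followed gene length. Genes listed at up to 500 bases were higher in CTR_1 than in CTR_2 by a median of 1.82 on the log2 scale of CPM, and genes over 8000 bases were lower by a median of -1.05. The same medians between CTR_2 and CTR_3 were 0.34 and -0.43, so the trend ran in the same direction in all 3 pairs and was steepest where CTR_1 was involved. Genes of up to 1000 bases took 28.8% of the reads of CTR_1, 12.1% of CTR_2 and 9.89% of CTR_3, and genes over 4000 bases took 12.7%, 25.98% and 30.7%. The median TPM of the filtered genes was 7.03, 15.8 and 17.8, the lowest in CTR_1. Spearman's rho of the ratio with length was -0.511, -0.555 and -0.537 for CTR_1 to CTR_2, CTR_1 to CTR_3 and CTR_2 to CTR_3. What made CTR_1 differ was not tested. For this reason the value of each library is given, or the mean of CTR_2 and CTR_3 (written as without CTR_1) beside the mean of all 3.

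**Figure D1:**
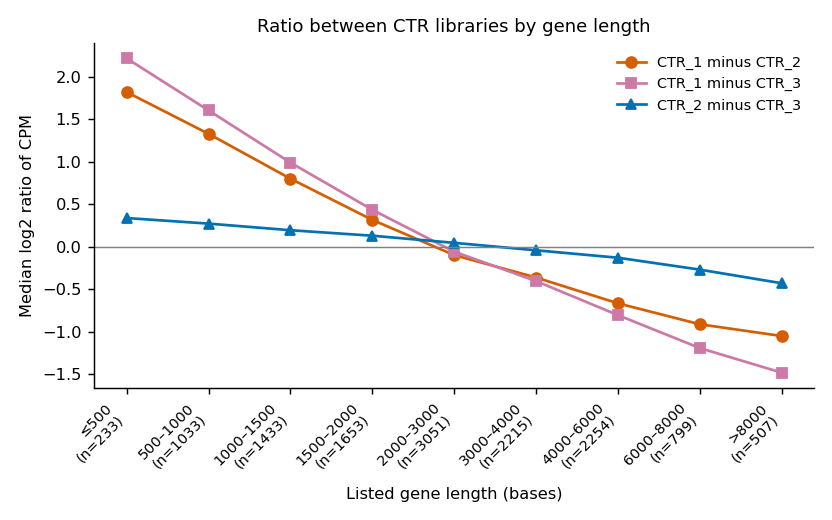
Median log2 ratio of CPM between each pair of CTR libraries (vertical axis) for genes grouped by listed length in bases (horizontal axis), with the number of genes under each group. The lines for CTR_1 against CTR_2 and CTR_3 fall from 1.82 and 2.22 in the shortest group to -1.05 and -1.48 in the longest, and the line for CTR_2 against CTR_3 falls from 0.34 to -0.43.

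The markers given for these cells were present in every library. Lyz2, the lysozyme of monocytes, macrophages and neutrophils, was the highest gene of each library per length, with 33007, 47389 and 47772 TPM and a mean of 42723 ± 8416 TPM (47580.5 without CTR_1). It alone took 3.43%, 3.33% and 3.07% of all reads. Cd74, the invariant chain of MHC class II, stood at 5828, 3695 and 3207 TPM, rank 17 of all genes by its mean of 4243 ± 1394 TPM (3451 without CTR_1). H2-Aa, the alpha chain of the class II molecule I-A, was at 1215, 1755 and 1629.7 TPM with a mean of 1533 ± 283, 1692 without CTR_1, and rank 97. The level of H2-Aa depends on the length assumed, since summed exons in place of the listed length gave a mean of 677 TPM. Itgax, which encodes the dendritic cell integrin CD11c, was the lowest of the 4, at 32.2, 74.8 and 85.6 TPM with a mean of 64.2 ± 28.2, 80.2 without CTR_1, and rank 2135. In each library the order of the 4 genes was the same, and their ranges over the libraries did not overlap.

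Of the 57238 entries listed, 12048 reached 1 CPM in every CTR library (21.0%). Among 22028 protein-coding genes 11040 did (50.1%), while 8000 (36.3%) had at most 3 reads in each library. A few genes held a large part of the reads. The 10 most abundant genes of a library took 13.5%, 10.3% and 9.999% of its reads (mean 11.3 ± 1.96%), and the 100 most abundant took 33.7%, 25.6% and 24.6% (mean 28.0 ± 5.02%). In CTR_1, 290 genes were enough to reach 50% of the reads, against 683 in CTR_2 and 754 in CTR_3. The top of CTR_1 was thus narrower than that of the other libraries.

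Apart from Lyz2 and from mitochondrial genes and their copies, which are given below, the highest mean levels per length belonged to iron storage, the actin cytoskeleton, calprotectin and the lysosome. The ferritin heavy chain Fth1 was at 31031, 16074 and 15241 TPM and the ferritin light chain Ftl1 at 19740, 13577 and 12789 TPM. The level of Fth1 depends on the length assumed, and summed exons gave a mean of 8371 TPM in place of 20782 TPM. Tmsb4x, which binds actin monomers, was at 23778, 16122 and 14173 TPM. All 3 genes were higher in CTR_1 than in both other libraries by TPM and by CPM, and ferritin and thymosin genes have near-identical copies elsewhere in the genome, so their levels are uncertain to the extent that reads were shared out. S100a9 and S100a8, which together form the neutrophil and monocyte protein calprotectin, followed with 24173, 12637 and 10118 TPM and with 15641, 6520 and 5232 TPM. S100a9 lay above S100a8 in each library, with a ratio of levels per length of 1.55, 1.94 and 1.93.

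Lysosomal and lipid-carrying genes formed a further block. Psap, the precursor of the saposins that help to degrade sphingolipids, stood at 5588, 8977 and 8885 TPM. The aspartyl protease cathepsin D (Ctsd) was at 5541, 4573 and 4405 TPM, cathepsin S (Ctss) at 1887, 5497 and 5441 TPM, and the lipid carrier Apoe at 6127, 3947 and 3602 TPM. Ctss was lower and Apoe higher in CTR_1, whereas CTR_2 and CTR_3 differed little in either. The translation factor Eef1a1 was at 3519.8, 6286 and 6214 TPM and the actins Actb and Actg1 at mean levels of 4454 ± 122 (4505 without CTR_1) and 4217 ± 747 TPM (4641 without CTR_1). Ranked by CPM without regard to length, the top 20 also took in long transcripts such as Fn1, the matrix protein fibronectin, the protease Ctsb, and Mpeg1, a pore-forming protein of phagocytes. Fn1 showed the widest spread of these, with 479, 1579.8 and 2764 TPM, lowest in CTR_1 and highest in CTR_3.

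**Figure D2:**
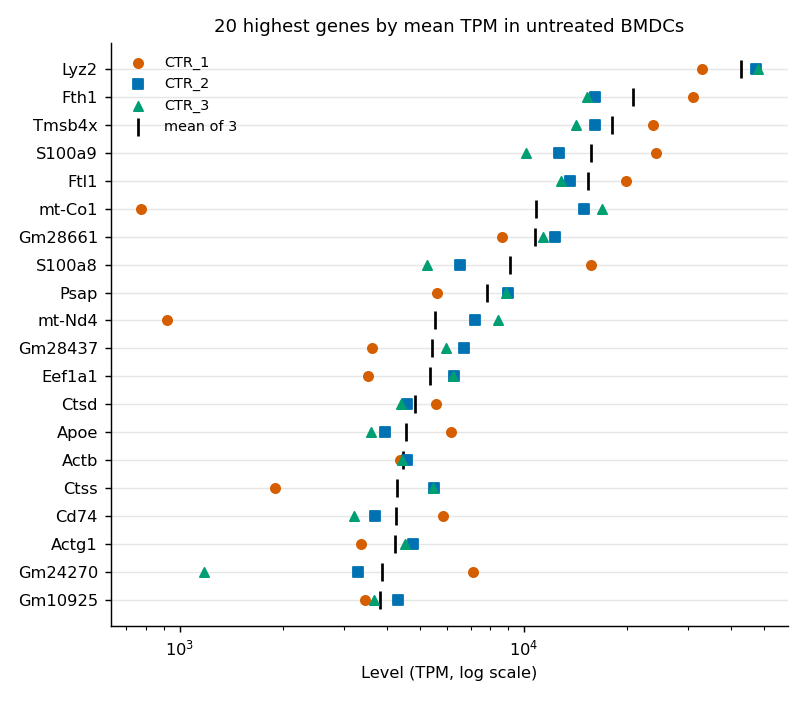
Level in TPM (horizontal axis, log scale) of the 20 genes with the highest mean over the 3 CTR libraries, with 1 symbol per library and a bar for the mean. Lyz2 leads in every library, while mt-Co1, mt-Nd4 and Ctss lie far lower in CTR_1 than in CTR_2 and CTR_3.

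The libraries shared their top genes to different degrees. Of the 20 highest genes by TPM, CTR_2 and CTR_3 had 19 in common (95%), while CTR_1 shared 10 (50%) with CTR_2 and 9 (45%) with CTR_3. At the level of the top 100 the shared numbers were 92, 63 and 56, and at the top 1000 they were 927, 726 and 667. Ribosomal protein genes such as Rpl41 and Rplp1 took places 8 and 9 in CTR_1, where they had 7529 and 7410 TPM, against 2054 and 2119 TPM in CTR_2. The order of the leading genes in CTR_1 was therefore not the order in the other untreated libraries.

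Several genes of the mitochondrial genome were low in CTR_1 although they are short. mt-Co1, which encodes a core subunit of cytochrome c oxidase, was at 775, 14929 and 16849.5 TPM, and mt-Nd4, a subunit of complex I, at 922, 7205 and 8420.3 TPM. mt-Cytb of complex III was at 675, 4145 and 4517 TPM. In contrast, mt-Co3 was at 2027, 298 and 764 TPM, highest in CTR_1, and mt-Atp6 had 6912 reads in CTR_1 and none in CTR_2 or CTR_3, although its neighbour and overlapping partner mt-Atp8 had 735, 4116 and 3593 reads. The genes of the mitochondrial genome together took 1.02%, 2.74% and 2.83% of the reads. The 2 mitochondrial ribosomal RNAs summed to 2593, 3001 and 2936 TPM, lowest in CTR_1. By CPM, however, CTR_1 was the highest library for both, by 1.67 and 1.89 times for mt-Rnr1 and by 1.79 and 2.01 times for mt-Rnr2 against CTR_2 and CTR_3. Copies of the mitochondrial genome on chromosome 1, listed as Gm28661 (8617, 12303 and 11375 TPM), Gm28437 (3619, 6680.3 and 5944 TPM) and Gm10925 (3455, 4315 and 3662 TPM), also ranked among the top 20. Reads of such copies and of the mitochondrial genes can be exchanged, so the level of each single gene here is uncertain. Gm24270, which is listed with a length of only 57 bases, stood at 7109.9, 3298 and 1175 TPM.

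Dendritic cell genes were detected but moderate in level. All 8 genes of a dendritic cell core list reached 1 CPM in every library, and they summed to 82.7, 242 and 280 TPM. Which cells of the culture expressed these genes was not tested. Slamf7, a receptor of the SLAM family, led the list with 32.7, 107 and 126 TPM, followed by Itgax. Zbtb46, a transcription factor restricted among myeloid cells mostly to conventional dendritic cells, was at 7.36, 19.6 and 21.2 TPM, and Flt3, the receptor that drives dendritic cell development in vivo, at 3.004, 7.92 and 9.61 TPM. The range of Zbtb46 overlapped that of the surface peptidase Dpp4 (2.42, 9.10 and 10.3 TPM), although within each library Zbtb46 was the higher. Of the 7 neighbouring pairs in the order of the list, 5 had ranges that overlapped over the 3 libraries and 2 did so between CTR_2 and CTR_3.

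Genes of both conventional subsets were found. In the list of the cross-presenting subset cDC1, 6 of 9 members were detected. Levels were mixed, and Xcr1, Itgae and Clec9a were among the low members. Irf8, a transcription factor of cDC1 that monocytes use too, was at 97.4, 196 and 209 TPM. Of the other members, Naaa was at 63.1, 188 and 194 TPM and Wdfy4 at 13.02, 25.9 and 39.6 TPM. The chemokine receptor Xcr1, which marks cDC1, had 15.2, 13 and 10.02 reads, or 0.205, 0.261 and 0.250 TPM, and Itgae (CD103) had 13, 16 and 10 reads. Both were under 1 CPM in each library. The receptor Clec9a was at 1.55, 4.40 and 4.24 TPM, above both. Batf3, which cDC1 require, was at 121, 56.8 and 44.3 TPM, highest in CTR_1, and its listed transcript is short (801 bases).

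For the cDC2 subset, Sirpa, an inhibitory receptor that macrophages also carry, led with 402, 607 and 700.1 TPM. Irf4, the factor tied to cDC2 and to monocyte-derived dendritic cells, was at 3.59, 13.3 and 15.1 TPM, and the lectins Mgl2 and Clec10a were at means of 22.8 ± 12.1 (29.6 without CTR_1) and 23.5 ± 2.48 TPM (23.3 without CTR_1). Cd209a, a lectin of monocyte-derived dendritic cells, had 1, 3 and 3 reads and so was at or under the limit of 3 reads in each library. Per length, Sirpa was 260, 138 and 165 times as high as Clec9a. Of the plasmacytoid list, 5 of 7 members were detected. Bst2 (244, 139.9 and 125 TPM) is shared by many cells. Siglech, the defining receptor, had 23, 20 and 20 reads, which is 1.30, 1.68 and 2.09 TPM. Between them in each library lay Spib (22.98, 47.8 and 44.9 TPM), Tcf4 (9.03, 17.1 and 20.4 TPM) and Ly6d (18.4, 11.3 and 9.54 TPM). Pacsin1 and Ccr9 had lower means than Siglech.

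By their sums the macrophage and monocyte lists stood above the core list of dendritic cells, although single members such as Fcgr1 and Cx3cr1 had lower means than Slamf7 and Itgax. All 13 genes of the macrophage list were detected, and their sum was 9563, 8410 and 8305 TPM, of which Apoe gave more than any other member. Csf1r, the receptor for M-CSF, was at 335, 983 and 1176 TPM, Cd68, a lysosomal protein of phagocytes, at 623, 919 and 933 TPM, and C1qb of the complement component C1q at 1091, 602 and 534 TPM. Adgre1, which encodes F4/80, stood at 60.3, 273 and 326 TPM. It exceeded Itgax by a ratio of 1.87, 3.65 and 3.81, so in every library the macrophage marker was higher per length than CD11c.

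Among the 7 monocyte genes, Ccr2, the receptor that draws monocytes from the marrow, led by its mean, with 285, 752 and 938 TPM. Ly6c2, the antigen of inflammatory monocytes, was at 326, 692 and 693 TPM, and F13a1, the coagulation factor XIII chain of monocytes, at 25.2, 123 and 152 TPM. Cx3cr1, higher in patrolling monocytes, had a lower mean, from 34.9, 46.5 and 58.8 TPM. Ly6c1 and Ly6c2 are close copies, and reads may have been divided between them.

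Neutrophil genes gave the largest sum of all cell type lists, at 47752, 27729 and 22860 TPM, with all 16 members detected. S100a9 and S100a8 made up most of it. Ngp, a protein of secondary granules, was at 1757, 3479.5 and 2955 TPM, lactoferrin (Ltf) at 1009, 1269 and 1163 TPM, Lcn2 at 1671, 1591 and 1421 TPM and the cathelicidin Camp at 1504, 654 and 517 TPM. Genes of primary granules, made by promyelocytes, were lower, with Prtn3 at 173, 91.7 and 80.8 TPM, Mpo at 55.2, 62.7 and 59.0 TPM and Elane at 90.2, 65.8 and 49.8 TPM. Ly6g, the antigen that defines neutrophils, was present in every library, at 73.3, 81.7 and 66.2 TPM. Of the 16 genes, 7 were at least 2-fold higher in CTR_1 than in both others by CPM (background 16.1% of all filtered genes), and the median log2 ratio of the list was 0.83 to CTR_2 and 1.24 to CTR_3, or 0.19 and 0.30 after the trend with length was removed.

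Granule genes of other granulocytes were found as well. The eosinophil granule gene Prg2 (major basic protein) was at 1373, 1053 and 844 TPM, and Epx, the eosinophil peroxidase, at 37.1, 60.9 and 60.9 TPM. Siglecf, a surface marker of eosinophils, was far lower at 1.80, 6.44 and 8.17 TPM. The receptor Ccr3 had the lowest mean of the 8 detected genes of the eosinophil list, at 1.52 TPM. The ribonucleases Ear2, Ear1 and Ear6 averaged 476 ± 110.2 (537 without CTR_1), 119 ± 29.9 (136 without CTR_1) and 53.3 ± 13.4 TPM (60.6 without CTR_1), and as near-identical genes they share reads. Basophil genes were led by the proteases Mcpt8 (217, 111 and 92.5 TPM) and Prss34 (142, 150.3 and 124 TPM), while the mast cell proteases Mcpt4 and Cma1 had 0 reads and 2, 0 and 0 reads. Apart from granulocytes, the platelet factor Pf4 led the megakaryocyte list at 329.6, 145 and 131 TPM.

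Lymphoid, erythroid and stromal genes were near the limit of detection, with a few exceptions. Ighm, the constant region of IgM, was at 126, 153 and 150 TPM, but the B cell gene Cd79a, a chain of the B cell receptor complex, was low at 11.99, 14.4 and 11.1 TPM. The T and NK cell list was led by Il7r, a receptor that myeloid cells can also carry, at 13.7, 54.2 and 61.8 TPM, whereas Cd3e had 3, 2 and 1 reads and the NK cell receptor Ncr1 0, 1 and 0 reads. Cd8a, which subsets of dendritic cells can also carry, had 52, 100 and 60 reads. None of the 8 erythroid genes reached 1 CPM in every library, and the alpha globin Hba-a1 had 111, 14.3 and 8.37 reads, most in CTR_1. The stromal platelet-derived growth factor receptor Pdgfra had 0, 2 and 1 reads, and Pecam1, which leukocytes share with endothelium, led the stromal and endothelial list with 3.01, 8.71 and 8.53 TPM. What each of these cell types added to the genes that several of them express was not tested.

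**Figure D3:**
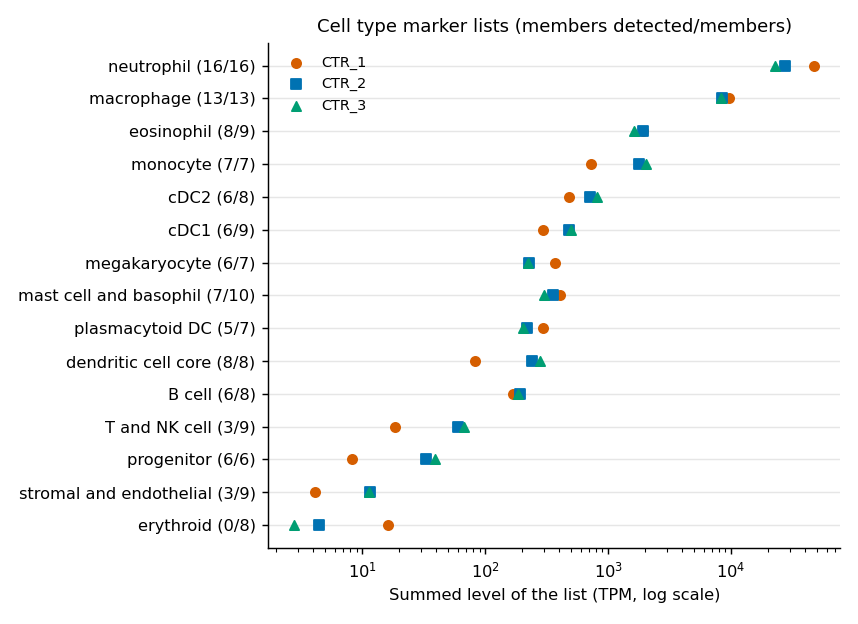
Summed level in TPM (horizontal axis, log scale) of each list of cell type markers, with 1 symbol per CTR library and the number of members with at least 1 CPM in every library out of all members beside the name. The neutrophil list (22860 to 47752 TPM) and the macrophage list (8305 to 9563 TPM) exceed the dendritic cell core list (82.7 to 280 TPM), and the erythroid list lies lowest in CTR_2 and CTR_3 and the stromal and endothelial list in CTR_1.

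The transcription factors of the lineages were all detected, and their order differed from that of the marker lists. All 23 lineage factors listed reached 1 CPM in every library. Id2, needed for conventional dendritic cells, was at 169, 438 and 429.8 TPM, and Spi1 (PU.1), the factor of all myeloid cells, at 255, 322 and 310.1 TPM. Cebpb, used by macrophages and monocytes, was at 159.8, 132 and 109 TPM. Cebpe, which neutrophils need to form secondary granules, was at 65.5, 49.0 and 43.2 TPM, whereas the B cell factors Pax5 and Ebf1 were at means of 0.932 ± 0.481 (1.21 without CTR_1) and 0.803 ± 0.147 TPM (0.732 without CTR_1). Neighbours in this order could rarely be separated, since the ranges overlapped for 21 of 22 neighbouring pairs over the 3 libraries and for 5 of 22 between CTR_2 and CTR_3.

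Genes of the MHC class II pathway were abundant. Of 16 listed, 15 were detected, and H2-Ea-ps, a gene that is not functional in C57BL/6 mice, had 2, 1 and 0 reads. It corresponds to the alpha chain of I-E, without which I-E does not reach the surface in this strain. Promoters of class II genes share a group of short elements that bind the RFX, CREB and NF-Y factors before Ciita is recruited. RefSeq promoter windows (GRCm38.p6, from 250 bases before to 50 bases after each start) were found for 8 of the 10 H2 genes in the list, in 9 windows. The letters GATTGG, the core of the element bound by NF-Y, or their reverse complement CCAATC were found in 8 of the 9 windows and in 16.1% of all 32851 windows. A match is a description and not proof of a site. The 4 windows below are shown because they belong to genes of different roles, namely the alpha chain of I-A, the beta chain of I-E, a chain of the peptide editor H2-DM and a chain of its inhibitor H2-DO. Capitals mark GATTGG or CCAATC, and each sequence reads 5′ to 3′ on the strand of the gene.
H2-Aa, chr17:34287774-34288073, minus strand: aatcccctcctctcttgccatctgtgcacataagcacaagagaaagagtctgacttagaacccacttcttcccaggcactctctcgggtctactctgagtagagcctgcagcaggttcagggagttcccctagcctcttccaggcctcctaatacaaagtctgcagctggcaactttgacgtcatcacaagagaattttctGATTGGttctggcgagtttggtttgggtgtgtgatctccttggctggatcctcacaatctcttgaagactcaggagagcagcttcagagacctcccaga
H2-Eb1, chr17:34305617-34305916, plus strand: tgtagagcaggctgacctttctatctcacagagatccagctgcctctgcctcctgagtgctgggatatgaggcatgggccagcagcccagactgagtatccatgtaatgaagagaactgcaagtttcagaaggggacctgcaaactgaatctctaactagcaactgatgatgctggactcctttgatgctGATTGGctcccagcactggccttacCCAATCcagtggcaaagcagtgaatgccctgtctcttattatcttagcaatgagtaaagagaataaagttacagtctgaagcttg
H2-DMb1, chr17:34152941-34153240, plus strand: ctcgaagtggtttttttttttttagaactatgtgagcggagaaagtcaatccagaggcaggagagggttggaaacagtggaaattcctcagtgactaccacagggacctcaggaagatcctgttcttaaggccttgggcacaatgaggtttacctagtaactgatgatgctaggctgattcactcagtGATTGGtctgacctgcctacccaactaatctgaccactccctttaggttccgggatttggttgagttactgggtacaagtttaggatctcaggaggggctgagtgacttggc
H2-Ob, chr17:34238655-34238954, plus strand: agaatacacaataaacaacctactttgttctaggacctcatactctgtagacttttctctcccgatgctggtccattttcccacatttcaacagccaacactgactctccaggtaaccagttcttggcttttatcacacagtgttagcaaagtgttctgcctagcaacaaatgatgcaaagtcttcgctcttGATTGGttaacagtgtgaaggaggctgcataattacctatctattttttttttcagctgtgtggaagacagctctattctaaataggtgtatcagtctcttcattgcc
The element began 49 bases before the start in H2-Aa, 60 in H2-Eb1, 62 in H2-DMb1 and 58 in H2-Ob, counted to its first base, and H2-Eb1 held a reverse copy 35 bases before the start.

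Per length, H2-Aa, H2-Ab1 and H2-Eb1 were the highest of these H2 genes, and the chains of H2-DO were among the lowest. Besides Cd74 and H2-Aa, the chains H2-Eb1 (1516, 1448 and 1262 TPM) and H2-Ab1 (1237, 1240.5 and 1093 TPM) of I-E and I-A were in the same range. The values of H2-Aa overlapped those of both, while H2-Eb1 lay above H2-Ab1 without overlap. H2-DMa and H2-DMb1, which load peptides, followed at 285, 259 and 221 TPM and at 127, 166 and 156 TPM. The inhibitory chains H2-Oa and H2-Ob were low, with 19.4, 11.6 and 12.01 TPM and with 5.42, 10.2 and 10.1 TPM. H2-DMa was 14.7, 22.3 and 18.4 times as high as H2-Oa per length, so the editor exceeded its inhibitor in each library. Ciita, the transactivator of the whole group, was at 8.996, 24.4 and 33.2 TPM, and March1, the ubiquitin ligase that sends class II molecules to degradation, at 14.2, 63.2 and 88.2 TPM. Cd74 was above H2-Aa in each library, by 4.798, 2.11 and 1.97 times, and this ratio rested strongly on CTR_1.

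The 10 listed genes of endosomal proteolysis, which trims the invariant chain and antigens, were all detected. Their sum, which takes in the inhibitor Cst3, was 15885, 18329 and 17743 TPM, led by the means of Ctsd and Ctss, which are given above. Cystatin C (Cst3), which inhibits cysteine cathepsins, was at 4062, 2691 and 2301 TPM, and Ctsb at 1007, 1617 and 1659.9 TPM. The thiol reductase Ifi30 was at 506, 402 and 392 TPM and the asparagine endopeptidase Lgmn at 318, 501 and 466 TPM. The exopeptidase Ctsc was at 258, 958 and 1107 TPM and Ctsz at 1523, 1015 and 933 TPM. Cathepsin S exceeded cathepsin L (Ctsl, 197, 357 and 325 TPM) in each library.

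All 25 genes of the MHC class I pathway were detected, with sums of 7431, 10349 and 9884 TPM. The light chain B2m led with 2257, 3857 and 3676 TPM. The heavy chains H2-D1 and H2-K1 followed with means of 1683 ± 505 (1974 without CTR_1) and 1446 ± 187 TPM (1552 without CTR_1), and these and the H2-Q and H2-T genes are near-identical in parts, so their separate levels are uncertain. B2m was 1.83, 2.43 and 2.42 times as high as H2-K1. The peptide pumps Tap1 and Tap2 stood at 34.6, 53.8 and 53.8 TPM and at 42.1, 56.8 and 53.2 TPM, with overlapping values. The immunoproteasome subunits Psmb8 and Psmb10 were at 235, 140.1 and 135 TPM and at 259, 89.8 and 79.0 TPM, both highest in CTR_1. Nlrc5, the transactivator of class I genes, was the lowest of the 25, at 4.67, 11.04 and 15.9 TPM.

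**Figure D4:**
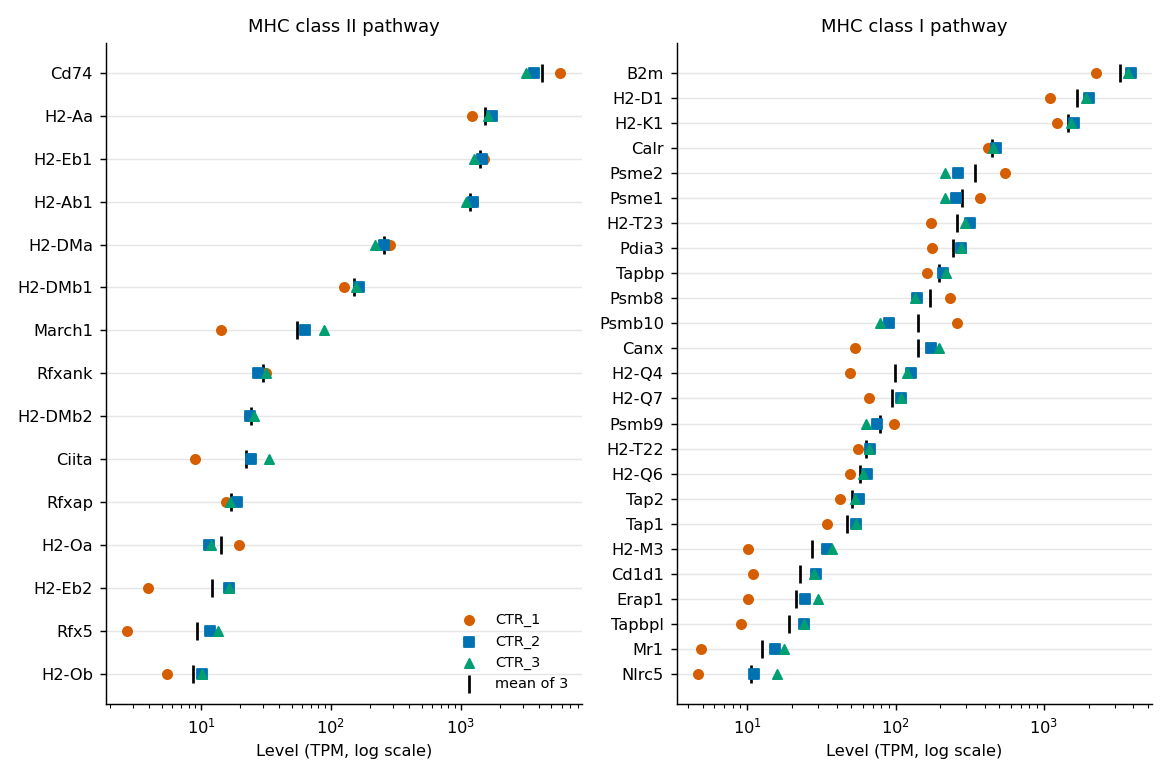
Level in TPM (horizontal axis, log scale) of the detected genes of the MHC class II (left) and class I (right) pathways in the order of their means, with 1 symbol per CTR library and a bar for the mean. Cd74 and B2m lead, the inhibitory chains H2-Oa and H2-Ob lie between 5.42 and 19.4 TPM, and the libraries CTR_2 and CTR_3 lie close together for nearly every gene.

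Genes of maturation were present without exosomes or an added stimulus. Ccr7, the receptor that guides dendritic cells to lymph nodes, was at 364, 398 and 376 TPM, and Cd83, a surface protein of mature dendritic cells, at 126, 126 and 127 TPM, the most even of the list per length. By CPM, Cd83 was 2.01 and 2.19 times as high in CTR_1 as in CTR_2 and CTR_3. Fscn1, which bundles actin in dendrites, was at 188, 306 and 298 TPM. The ligands of CD28 were lower, with Cd86 at 31.7, 71.4 and 91.7 TPM and Cd80 at 22.4, 66.2 and 86.8 TPM, and their ranges overlapped. Cd40, which receives help from T cells, was at 8.53, 10.9 and 8.91 TPM, and Cd70 had 9, 2 and 4 reads. The subunit Il12b stood at 57.2, 118 and 130 TPM.

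Inhibitory molecules were also found at substantial levels. Lilrb4a and Pirb, receptors with inhibitory motifs, were at 685, 643 and 869 TPM and at 392, 539 and 612 TPM. The ligands of PD-1, Cd274 (19.8, 99.1 and 122 TPM) and Pdcd1lg2 (32.0, 79.1 and 134 TPM), overlapped in range, and Cd274 was at least 2-fold lower in CTR_1 than in both others. An antisense entry that shares exonic bases with Cd274, AC119228.1, had 47.9, 891 and 1853 reads, and without a stated strand of counting its reads cannot be told from those of Cd274. Tgfb1, an anti-inflammatory cytokine, was at 175, 236 and 244 TPM. Ido1, which degrades tryptophan, had 13, 17 and 11 reads, and Il10 had 0, 0 and 3 reads, at or under the limit of 3 reads in each library.

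Receptors for microbial products covered nearly all members. Of 15 Toll-like receptors and partners, 13 were detected. Cd14, the co-receptor for lipopolysaccharide, led with 583, 751 and 778 TPM. Among the receptors themselves Tlr8 (15.3, 156 and 211 TPM), Tlr2 (66.5, 124 and 150.4 TPM) and Tlr13 (28.7, 95.4 and 122 TPM) had the highest means, and Tlr4, which binds lipopolysaccharide, was at 16.7, 56.8 and 78.5 TPM. In CTR_1, Tlr8 lay below Tlr2, Tlr13 and Tlr4. Tlr3, a receptor for double-stranded RNA that marks cDC1, was at 0.994, 3.83 and 4.33 TPM, and Tlr5, the flagellin receptor, had 14, 62 and 90 reads. Of the cytosolic sensors, Tmem173 (STING) had the highest mean, from 24.2, 57.1 and 60.7 TPM, and Nlrp3, the inflammasome sensor, was at 7.30, 54.1 and 66.5 TPM.

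Uptake receptors were led by C-type lectins of the Dectin clusters. Clec4n (Dectin-2) was at 804, 942 and 948 TPM, Clec4d at 909.9, 600.5 and 587 TPM and Clec7a, the beta-glucan receptor Dectin-1, at 198, 468 and 518 TPM. The mannose receptor Mrc1 was at 25.7, 119.6 and 152 TPM, and Ly75 (DEC-205), a receptor of cDC1 and mature dendritic cells, at 4.61, 30.3 and 43.2 TPM. The Langerhans cell lectin Cd207 and Cd209e had no read in any library. Fcer1g, the signalling chain of several Fc receptors, was at 1282, 1153 and 1032 TPM, and the activating receptor Fcgr3 and the inhibitory Fcgr2b at means of 818 ± 211 (940 without CTR_1) and 556 ± 272 TPM (712 without CTR_1), with overlapping values. The monocyte and macrophage receptor Fcgr1 (CD64) was at 41.6, 50.6 and 49.1 TPM. Among scavenger receptors Msr1 led with 187, 461 and 561 TPM, followed by the fatty acid transporter Cd36 with 82.1, 368 and 413 TPM.

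The receptor for the culture cytokine was well expressed. Csf2ra, the specific chain for GM-CSF, was at 146, 478 and 488 TPM, and the common chain Csf2rb at 190.2, 328 and 403 TPM. Their ratio was 0.769, 1.46 and 1.21, so the order of the chains differed between CTR_1 and the others. Csf2rb2, a near copy that belongs to the receptor for interleukin-3, was at 109, 220.1 and 264 TPM, and the specific chain of that receptor, Il3ra, at 109, 36.0 and 32.0 TPM. Tnfrsf1b and Ifngr1, receptors for TNF and for interferon gamma, were at means of 439.7 ± 208 (556 without CTR_1) and 411 ± 172 TPM (509.7 without CTR_1). Of 28 cytokine receptors, 27 were detected, and the interleukin-1 receptor Il1r1 was the exception with 8, 61 and 68 reads.

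**Figure D5:**
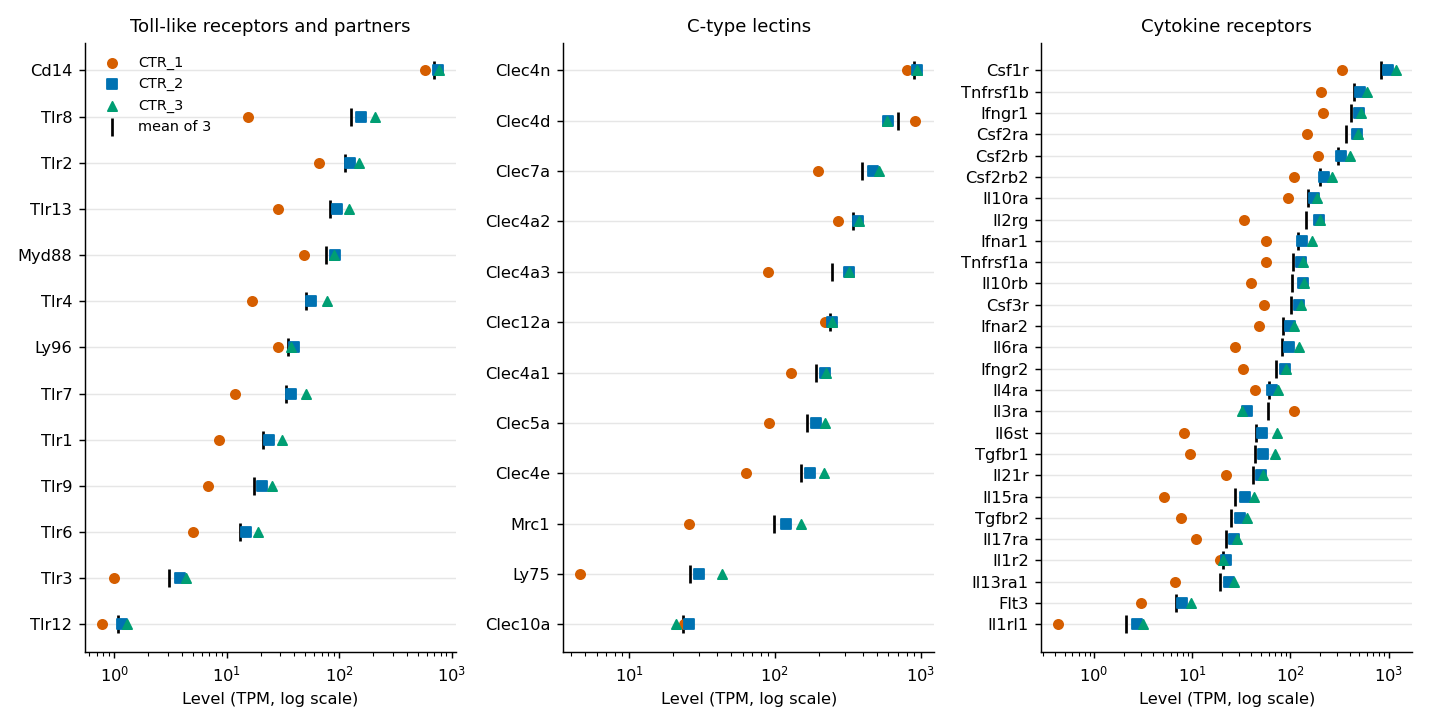
Level in TPM (horizontal axis, log scale) of detected Toll-like receptors and partners (left), C-type lectins (middle) and cytokine receptors (right), ordered by their means, with 1 symbol per CTR library and a bar for the mean. In TPM most receptors lie lower in CTR_1, Tlr8 more than any other Toll-like receptor shown, while Il3ra and Clec4d lie highest in CTR_1.

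Of 22 chemoattractant receptors 13 were detected, and Ccr2 and Ccr7, both given above, were the highest in every library. The formyl peptide receptors Fpr2 and Fpr1 stood at 118, 226 and 254 TPM and at 107, 162 and 183 TPM. Ccr1, which binds inflammatory chemokines, was at 48.6, 140.4 and 148 TPM. Ccr6, a receptor of epithelial homing, had 0, 40 and 32 reads, and Ccr8 had 0, 0 and 1 reads.

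Many leukocyte integrins were lower in CTR_1. Itgam, which encodes CD11b, was at 93.7, 893 and 1159 TPM, and Itgb2, the shared beta chain of CD11b and CD11c, at 180.5, 872 and 974 TPM. Per length Itgam exceeded Itgax by 2.91, 11.9 and 13.5 times, so its lead was smallest in CTR_1. Of 12 integrin genes that passed the filter, 7 were at least 2-fold lower in CTR_1 than in both others, against 20.1% of all filtered genes. The median log2 ratio of the list was -1.17 to CTR_2 and -1.28 to CTR_3, and -0.39 and -0.53 with the trend with length removed. Integrin transcripts are long, with a median listed length of 4101 bases here.

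Among secreted factors, chemokines of the CCL family were the most abundant. Ccl6 was at 1705, 2602 and 2640.4 TPM, Ccl9 at 511, 885 and 887 TPM and Ccl5, which attracts T cells, at 1617, 873 and 765 TPM. Ccl22 and Ccl17, ligands of Ccr4 that GM-CSF cultures are known for, were at 247, 292 and 279 TPM and at 58.7, 20.7 and 16.4 TPM. Il1b was at 149, 207 and 205 TPM and Tnf at 10.99, 13.7 and 13.7 TPM. Il6 had 19, 76 and 50 reads, and Il23a and Cxcl9 had at most 3 reads in each library. Of 28 cytokines and chemokines 21 were detected.

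Of 14 genes that are typical of cells grown in GM-CSF, 12 were detected, over a wide range of levels. Fabp5, a carrier of fatty acids, was at 1418, 1579.7 and 1415 TPM, the chitinase-like protein Chil3 at 752, 1461 and 1366 TPM, and the transmembrane glycoprotein Gpnmb at 206, 844 and 942 TPM. The elastase Mmp12 was at 276, 769 and 883 TPM. Low members were the signalling inhibitors Socs2 (8.78, 23.9 and 24.8 TPM) and Cish (1.92, 3.86 and 3.70 TPM), and Plet1 (0.782, 1.205 and 0.788 TPM) did not reach 1 CPM in every library. Retnla, an alternative activation gene, was low and uneven at 16.4, 8.73 and 3.33 TPM. It was 1 of 2 genes, among 385 filtered list genes, that differed at least 2-fold between CTR_2 and CTR_3, the other being the RNA component Rmrp. Of all filtered genes 1.67% did. For the receptor genes of lipid signals, Pparg was at 7.03, 17.2 and 16.9 TPM, Ppard at 7.53, 18.8 and 22.7 TPM, and Ppara had 0.87, 0.65 and 1.78 reads, below the limit that a count of 0 allows. The liver X receptor Nr1h2 had the highest mean of the nuclear receptors listed, from 55.2, 97.0 and 103 TPM.

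Genes of cell division were present at modest levels. All 14 were detected, led by the replication clamp Pcna at 74.0, 157 and 153 TPM, with Mki67 at 8.22, 19.6 and 28.8 TPM and Top2a at 5.77, 24.5 and 28.6 TPM. Kit, the stem cell factor receptor of progenitors and mast cells, was at 1.84, 13.2 and 16.7 TPM, and Cd34 had 43.0, 63.2 and 50.9 reads. Interferon-stimulated genes were low apart from Mx1 in CTR_2 and CTR_3 (22.7, 102 and 135 TPM in the 3 libraries). Isg15 was at 36.5, 23.6 and 19.5 TPM and Irf7 at 25.5, 27.7 and 32.9 TPM, both above Mx1 in CTR_1. Hypoxia-responsive genes were led by the glycolytic Pgk1 (492, 938 and 999 TPM) and Ldha (378, 646 and 634 TPM), and Vegfa was at 47.7, 262 and 283 TPM. Among the cholesterol synthesis genes, Insig1, which holds back the pathway, had a mean of 52.8 ± 22.3 TPM (65.5 without CTR_1) and the synthase Lss a mean of 6.65 ± 3.74 TPM (8.72 without CTR_1).

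The disagreement between libraries was then counted gene by gene. At least 2-fold apart in CPM were 4983 of 13178 genes (37.8%) between CTR_1 and CTR_2, 5945 (45.1%) between CTR_1 and CTR_3 and 220 (1.67%) between CTR_2 and CTR_3. With the trend with length removed, 3312 (25.1%), 3915 (29.7%) and 212 (1.61%) remained in number. CTR_1 was at least 2-fold higher than both others for 2119 genes (16.1%) and at least 2-fold lower for 2650 (20.1%). For CTR_2 these numbers were 9 (0.0683%) and 19 (0.144%), and for CTR_3 88 (0.668%) and 97 (0.736%). The filter removes genes under 1 CPM in 2 libraries, so a gene present in 1 library alone could not enter the higher counts. The common dispersion estimated by edgeR was 0.253 for the 3 libraries, a coefficient of variation of 50.3%, and 0.0182 (13.5%) for CTR_2 and CTR_3 alone. These 2 libraries were therefore far closer to each other than the group as a whole. With library totals alone in place of TMM factors, the median ratio of CTR_1 to CTR_2 and to CTR_3 shifted by -0.43 and -0.44 on the log2 scale, and the share of higher genes among those 2-fold apart fell from 44.4% to 22.1% and from 44.9% to 25.5%.

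Among the 385 list genes that passed the filter, 57 were at least 2-fold higher in CTR_1 than in both others and 54 at least 2-fold lower, smaller shares than the 16.1% and 20.1% of all filtered genes. Groups of short transcripts gave far larger shares. Of 79 cytosolic ribosomal protein genes, which had summed levels of 193218, 81945 and 71377 TPM and a median listed length of 780 bases, 76 were at least 2-fold higher in CTR_1, all but Rps7, Rpl7a and Rpl7l1. Their median log2 ratio was 2.16 to CTR_2 and 2.53 to CTR_3, and 0.82 and 0.86 with the trend with length removed. Another set held 76 filtered nuclear genes of the respiratory chain, chosen by name, which takes in ATP synthase (Atp5) and Uqcc genes. Of these, 66 were higher in this sense and Ndufs1 was lower. Their median log2 ratio was 1.88 to CTR_2 and 2.18 to CTR_3, and 0.44 and 0.51 with the trend with length removed. The nuclear set summed to 24726, 12216 and 10633 TPM while the mitochondrially encoded mRNAs summed to 11093, 37519 and 42078 TPM. In TPM, CTR_1 was thus the highest library for the nuclear set and the lowest for the mitochondrial mRNAs.

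Several genes with the largest gaps were pseudogenes or overlapped another gene. Cmss1, a nucleolar protein gene, had 43678 reads in CTR_1 and 33 and 42 in the others, and Filip1l, which lies within the bounds of Cmss1 on the other strand, had 147, 36578 and 12262 reads. Together they showed opposite patterns, although their annotated exons do not overlap. Fam221b had 13438, 7.86 and 7.95 reads and overlaps exons of Gm12481 and Tmem8b. Gm6472, a pseudogene, had 7091 reads in CTR_1 and 0 and 2.47 in the others, and Gm37376, which lies opposite Malat1, had 969 reads in CTR_1 and none elsewhere. In the other direction, Vcl, the cell adhesion protein vinculin, had 6.64, 1616 and 1681 reads and shares exonic bases with Ap3m1, and the pseudogene Rpl15-ps3 had 0, 2657 and 2003 reads. Of 24 annotated filtered genes at least 16-fold higher in CTR_1 than in both others, 15 (62.5%) shared exonic bases with another gene. Of 103 at least 16-fold lower 46 (44.7%) did, against 38.1% of all annotated filtered genes. The filter removes genes under 1 CPM in both CTR_2 and CTR_3, so Fam221b, Gm6472 and Gm37376 were not among the 24. It keeps genes that are low in CTR_1 alone, so the 24 and the 103 cannot be compared as counts. Pseudogenes were 8 of the 24 and 22 of the 103, against 293 of all 12803.

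CTR_2 and CTR_3 differed strongly at few genes. AY036118, a lincRNA entry, had 20690.1, 4309 and 4.39 reads and overlaps the entries CT010467.1 and Gm42418, and Gm11518, a pseudogene, had 3613, 96.6 and 14.6 reads. The values highest in CTR_3 included Zbtb20, a transcription factor with a listed length of 26901 bases, at 386, 528 and 1145 reads, and Hipk2, a kinase, at 507, 803 and 1679 reads. At these genes CTR_2 lay between the other libraries.

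Genes often used as references varied with the library and the scale. Per length, Actb was at 4354, 4589.5 and 4419.9 TPM, and Ppia was at 892, 907 and 815 TPM. Gapdh was at 2038, 2396 and 2422 TPM. Hprt (45.5, 143 and 138 TPM), Ywhaz (115, 389.9 and 408 TPM) and Tbp (9.02, 31.4 and 36.1 TPM) were each lowest in CTR_1 by both scales. By CPM, Actb was higher in CTR_1 by 0.92 and 1.12 on the log2 scale than in CTR_2 and CTR_3, and Ppia by 0.97 and 1.27. None of the 10 reference genes was at least 2-fold apart between CTR_1 and both others in the same direction. Among all filtered genes 16.1% were higher and 20.1% lower in this sense.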

How the data were processed

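The authors deposited estimated counts (expected counts, not all whole) for 57238 entries in 9 libraries, and the 3 CTR columns were used. The submitters' processing notes name TopHat2 2.1.1, DESeq2 1.24.0 and R 3.3.1. The program that counted reads, with its strand setting, build and gene models, is not given in the sources used here. Columns with the authors' group means were not used. Of the entries, 1702 are assembled transcripts, and all 55536 Ensembl identifiers matched GENCODE vM21 (GRCm38), which gave the gene names, 27 of which had been turned into dates.

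Estimated counts were rounded to whole numbers for library totals and for edgeR. CPM used TMM factors over the CTR libraries (0.816, 1.10 and 1.11), with a prior count of 2 for log2 values. TPM used the deposited length column, which equals the longest transcript for 86.0% of genes. Genes with at least 1 CPM in at least 2 libraries passed the filter, and detected means at least 1 CPM in every library. With 1 group there was no contrast, so no test was run and no p-value is given. Depth was 21092850, 20953690 and 18474193 reads.

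Named genes were the 20 highest by mean TPM and by mean CPM, the given markers, the leading and defining members of 41 lists and members at or under 3 reads, list members at least 2-fold apart between 1 library and both others, and for each library the 8 genes highest and the 8 lowest in it among those with a mean of at least 10 CPM. The members and lists were chosen with earlier results of these data known. Alternatives were other scalings, filters, prior counts and lengths, Spearman correlation, mitochondrial genes left out, and each library left out in turn. The scaling, the log2 ratios and the dispersion were tested on simulated data with few changed genes and no trend with length. The simulated dispersions were lower than that of the 3 CTR libraries together, and the simulated ratios used another offset than the prior count of 2. Conditions such as those of CTR_1 were therefore not covered. Software was R 4.3.3 with edgeR 4.0.16 and DESeq2 1.42.0, and Python 3.11.15 with numpy 2.4.6, pandas 2.3.3, statsmodels 0.14.6 and matplotlib 3.10.9.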

Additional observations from a re-analysis of the deposited data

How the results depend on the processing

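No paired analysis was possible because no result comes from a test. Of 243 values under alternatives, 221 moved little and 22 moved further. Changes of direction were not assessed. Little means less than 1 SD between libraries (levels, shares and correlations) or less than 1.5 times (counts and dispersions). A mean level or share cannot move by 1 SD when a library is left out, so such values were bound to be among the 221. The mean of mt-Co1, for example, was 10851 TPM with all libraries and 15889 TPM without CTR_1, and was counted there. For levels and shares the tally therefore cannot show whether the means depend on CTR_1. With no filter on low counts, the mean correlation of CTR_1 with the other libraries was 0.927 and that of CTR_3 0.953 (0.839 and 0.901 with the filter), the genes at least 2-fold apart numbered 9990 for CTR_1 and CTR_2, 11216 for CTR_1 and CTR_3 and 2051 for CTR_2 and CTR_3, and the dispersion was 0.390. Requiring 10 counts in every library left 142 genes at least 2-fold apart between CTR_2 and CTR_3. Removing the trend with length, an alternative chosen after seeing the data, left 3312 and 3915 genes for the pairs with CTR_1. Leaving out each library in turn gave dispersions of 0.0182 to 0.402, the lowest without CTR_1, detected genes of 12158 to 12704, shares of the top 10 genes of 10.1% to 11.9% and shares of the top 100 of 25.1% to 29.7%. Of 477 named genes, the level stayed within 1.5 times in 442 to 468 when a library was left out. Leaving out 1 of 3 libraries cannot raise a mean by more than 1.5 times, so only falls could count there. With summed exon lengths, also chosen after seeing the data, 382 genes stayed within 1.5 times. Under the other scalings all 477 did, which was fixed in advance, since the factors of a library differed by less than 1.5 times. For these moves the cause was not tested, except that fewer or more genes enter under another filter. Genes of a few reads are limited by depth.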

Other observations

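Of 6 filtered RNAs in a list of nuclear RNAs, 2 were at least 2-fold higher in CTR_1 than in both others (16.1% of all filtered genes) and 1 was at least 2-fold lower (20.1%). The small nuclear RNA Rn7sk, which holds back transcription elongation, was at 1545, 246 and 174 TPM in CTR_1, CTR_2 and CTR_3, and the long nuclear RNAs Malat1 and Neat1 were at 73.8, 316 and 395 TPM and at 73.7, 219.96 and 206 TPM. By CPM, Rn7sk was higher in CTR_1 by 3.64 and 4.28 on the log2 scale, while Malat1 lay at -1.10 and -1.28 and Neat1 at -0.58 and -0.35. The Spearman correlation of the log2 ratio with the GC content of the gene was 0.384 for CTR_1 to CTR_2, 0.388 for CTR_1 to CTR_3 and 0.258 for CTR_2 to CTR_3, over 12794 genes that are not independent replicates.

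Xist, the RNA of the inactive X chromosome, had 6141, 16275 and 24902 reads, and the Y-linked genes Eif2s3y, Ddx3y and Uty had at most 3 reads in each library. Kdm5d, also on the Y chromosome, had 1.86, 0 and 4.04 reads.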
